A study of Homo sapiens with 9 samples.

Results

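Paraoxon was compared with control in NT2 cells after 4 days (96 h) on 6 of the 9 arrays of the study, 3 with paraoxon and 3 controls, across every non-control probe of the array. The array carried 42405 such probes and 29134 of them were tested, namely those well above background on all 3 arrays of 1 treatment or more. NT2 (hNT2 in the labels) is a human embryonal carcinoma line, and the cells of all 3 treatments were kept in differentiation medium with retinoic acid. The control cells received no organophosphate (OP) and the paraoxon cells received 1 µM paraoxon. The cells of the 3 remaining arrays, used here only to set the same genes beside them, received 5 µM mipafox. Each RNA sample was hybridised to its own 1-colour array, and the 3 arrays of a treatment are lettered A, B and C. The study's methods describe the arrays of a treatment as technical replicates whereas the design text deposited with the data describes biological ones, so the p-values below may measure technical spread alone. The line is a single tumour-derived model of early neural differentiation, and in RNA of whole cultures fewer cells of a type and less RNA per cell cannot be told apart.

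Paraoxon is the active oxon of the insecticide parathion. It phosphorylates the catalytic serine of acetylcholinesterase and of other serine hydrolases, whereas mipafox also inhibits and ages neuropathy target esterase, the enzyme linked to OP-induced delayed neuropathy. Retinoic acid drives NT2 cells out of pluripotency through nuclear receptors that switch on HOX genes and, later, neuronal genes. At this stage OPs can meet both their esterase targets and the machinery of early neural commitment.

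Control and paraoxon arrays shared no slide. The control arrays and mipafox A were on slide 1, and the paraoxon arrays with mipafox B and C were on slide 2, so slide and paraoxon cannot be told apart from the 6 arrays alone. Values are the log2 processed signal of a probe minus the 75th percentile of its array, written below as the log2 signal. The 75th percentile lay between 802 and 1590 intensity units, and 65.7 to 73.6% of probes per array were well above background. The added E1A control transcripts had a median log2 signal of -0.88 to -0.73 on the control arrays, -3.00 to -1.55 on the paraoxon arrays and -3.13 to -1.88 on the mipafox arrays. Their level thus moved with the treatments, and its part in the differences below was not tested.

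The markers fitted the label of the line. All 8 embryonal carcinoma markers, among them POU5F1, SOX2 and NANOG, and all 8 neural progenitor markers, among them PAX6 and NES, were well above background on all 9 arrays. Of 8 neuron markers 5 were, and STMN2 was above background on 2 arrays. Of 6 glial markers 3 were, with GFAP and SOX10 above background on none. Of 12 endoderm, mesoderm and trophoblast markers 4 were, with T, EOMES and HAND1 on none, and of 7 fibroblast markers 4 were. Summed on the linear scale, the embryonal carcinoma markers gave 107 to 115 times the 75th percentile in controls and 106 to 112 with paraoxon. The neural progenitor markers gave 68.3 to 76.1 and 67.5 to 78.2, and the neuron markers 12.4 to 15.5 and 11.4 to 13.4, so the ranges of control and paraoxon overlapped for each of these groups.

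With the threshold set at adjusted p 0.05 and an absolute log2 difference of 1, limma called 0 of 29134 probes (0%) in the fit of all 9 arrays. At an unadjusted p under 0.05 and the same difference, here termed the unadjusted limit, 638 probes passed (2.19%), of which 423 were higher with paraoxon (1.45%) and 215 lower (0.738%). A fit without the mipafox arrays, termed the 6-array fit, called 244 probes higher (0.838%) and 32 lower (0.11%) at the adjusted threshold. With slide as a block, a fit in which only mipafox links the slides, 249 probes were higher (0.855%) and 568 lower (1.95%) at the unadjusted limit. The balance between higher and lower thus turned between these fits. None of the results below therefore rests on a call in the full design, and each difference is given as a value with its arrays.

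Much of what was higher carried no name of a protein-coding gene. Of the 423 higher probes, 36.2% carried the name of a long intergenic non-coding RNA (lincRNA) locus and 31.2% a transcript or probe identifier without a gene symbol, against 15.8% and 9.2% of all probes tested. Probes named for lincRNA loci were higher in 153 of 4612 cases (3.32%) and lower in 41 (0.889%). Those with an identifier alone were higher in 132 of 2680 cases (4.93%) and lower in 27 (1.01%). Pseudogene probes were higher in 14 of 439 cases (3.19%) and lower in 1 (0.228%). Protein-coding genes had 89 of 19722 probes higher (0.451%) and 132 lower (0.669%).

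**Figure D1:**
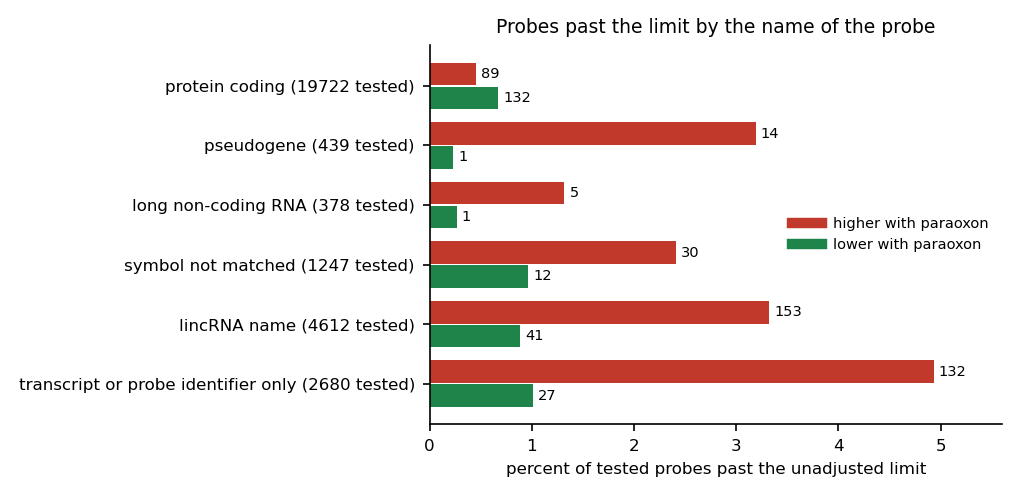
Percent of tested probes past the unadjusted limit (horizontal axis) for each class of probe name, higher and lower with paraoxon shown as separate bars. Identifier-only, lincRNA and pseudogene probes reached 4.93, 3.32 and 3.19% higher, whereas protein-coding probes reached 0.451% higher and 0.669% lower.

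The balance of higher and lower in these classes depended on the fit and the threshold. The 6-array shares below are at the adjusted threshold and the others at the unadjusted limit. In the 6-array fit 3.62% of identifier-only probes were called higher and 0.224% lower, 1.54 and 0.13% of lincRNA probes, 2.05 and 0% of pseudogene probes, and 0.223 and 0.0913% of protein-coding probes. With slide as a block 1.64% of identifier-only probes were higher and 1.72% lower, 2.34 and 1.65% of lincRNA probes, 0.911 and 2.28% of pseudogene probes, and 0.355 and 2.11% of protein-coding probes. In the values normalised by the authors 2.54% of identifier-only probes were higher and 0.076% lower, 0.885 and 0.221% of lincRNA probes, 2.07 and 0% of pseudogene probes, and 0.148 and 0.0972% of protein-coding probes. Protein-coding probes thus had more lower than higher members in all 9 arrays and with the block. They had more higher ones in the authors' values, and in the 6-array fit at its stricter threshold. At the unadjusted limit 0.477% were higher and 0.69% lower without mipafox A, and 0.401 and 0.852% with quantile normalisation. Pseudogenes turned to more lower ones with the block. These comparisons with other fits were added after the data were seen. The 4612 lincRNA probes had a median difference of 0.16, above the 0.01 of all genes, and 0.31 with slide as a block. Relative to the control mean their median was 0.28, -0.05 and -0.21 on control A to C. On paraoxon A to C it was 0.15, 0.02 and 0.36, so the groups overlapped.

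The probe nearest to a call was one of the identifier-only probes, named by the transcript identifier ENST00000459691 (chromosome 7, 46822781 to 46822840, build hg19). Control A to C gave -7.03, -7.10 and -6.83 and paraoxon A to C -4.57, -4.38 and -4.38. Mipafox A, on the control slide, stood at -5.57, and mipafox B and C, on the paraoxon slide, at -4.99 and -4.49. The control arrays thus lay below every OP-treated array, and mipafox A already stood apart from the controls of its own slide. The difference of 2.55 had an adjusted p of 0.0608 in limma, and 0.0108 when mipafox C was left out.

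Among genes with a symbol and a probe well above background on all 6 arrays, the 12 higher probes with the smallest p included 10 of protein-coding genes. TXNDC17, a small thioredoxin-like disulfide reductase, gave -0.77, -0.93 and -0.77 in control and 0.92, 1.28 and 1.05 with paraoxon. ANXA2, a calcium-dependent membrane-binding annexin, gave -1.46, -1.36 and -1.33 in control and 0.23, 0.17 and 0.44 with paraoxon on its probe A_32_P148345. SCD5, a desaturase that makes monounsaturated fatty acids, gave -5.14, -4.80 and -4.85 in control and -2.88, -2.76 and -3.44 with paraoxon on A_33_P3386288. For all 3 the lowest paraoxon array lay above the highest control array, which was also true of 12.4% of all tested probes. In build hg19 these probes lie at chr17:6547783-6547842 for TXNDC17, chr15:60639588-60639647 for ANXA2 and chr4:83582046-83582105 for SCD5. TXNDC17 was higher by 1.90 ± 0.25 (SE), 3.74-fold, with an adjusted p of 0.069 in all 9 arrays and 0.00519 in the 6-array fit.

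The other protein-coding members of this group were higher by 1.01 to 1.70. SET, a histone chaperone and inhibitor of protein phosphatase PP2A, was higher by 1.15 on 1 probe. SP100, a constituent of PML nuclear bodies, was higher by 1.34, and SNRPC, a protein of the U1 spliceosomal particle, by 1.01. F2RL3, the thrombin receptor PAR4, was higher by 1.05, and KRTAP10-9, a hair keratin-associated protein, by 1.70. CMTM1, of the chemokine-like factor family, was higher by 1.66 and the tetratricopeptide protein gene TTC16 by 1.24. SP100 and SNRPC each had a brighter probe, at 4.73 and 4.84 on average over the 9 arrays, which differed by 0.06 and -0.08. All 12 passed in the 6-array fit (adjusted p 0.00519 to 0.043 in limma), where they rose with paraoxon.

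FKSG2 and HMGB3P24, both in this group, are processed copies of expressed genes. FKSG2, now TPT1P8, is a copy of TPT1, the translationally controlled tumour protein gene, and its probe gave -1.19, -1.26 and -1.05 in control and 0.63, 0.67 and 0.78 with paraoxon. Both tested probes of TPT1 itself, chosen after these values were seen, differed by -0.20 and -0.03. HMGB3P24, a copy of the chromatin protein gene HMGB3, gave -3.43, -3.60 and -3.85 in control and -2.37, -2.35 and -2.11 with paraoxon. Its parent differed by -0.04 and 0.32 on its 2 probes. The copies were thus higher by 1.86 and 1.35, and no parent probe passed the unadjusted limit. Copies share sequence with their parents, so which transcript such a probe measured is uncertain.

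The 12 lower probes with the smallest p were chosen by the same rule. ZNF260, a zinc finger transcription factor, gave -2.15, -1.99 and -2.29 in control and -3.10, -3.10 and -3.35 with paraoxon. MB21D1, now CGAS, the cytosolic DNA sensor, gave -3.22, -3.36 and -3.50 in control and -4.51, -4.62 and -4.50 with paraoxon. EPC1, a subunit of the NuA4 histone acetyltransferase, gave -1.37, -1.14 and -1.44 in control and -2.34, -2.43 and -2.71 with paraoxon. In each the highest paraoxon array lay below the lowest control array, as in 11.1% of all tested probes. Their probes lie at chr19:37004570-37004629, chr6:74138467-74138526 and chr10:32557909-32557968. ZNF260 differed by -1.04 ± 0.14 (SE), with a limma adjusted p of 0.0719 in all 9 arrays and 0.028 in the 6-array fit. Its brighter probe differed by 0.09. CGAS and EPC1 both differed by -1.18.

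ARHGAP42, a GTPase-activating protein, the zinc finger gene ZSCAN30, the RNA-binding protein gene RBM33 and HS6ST2, a heparan sulfate 6-O-sulfotransferase, also passed in the 6-array fit, with differences of -1.11, -1.28, -1.37 and -1.23, as did ZNF260, CGAS and EPC1, so these 7 fell in that fit. The other 5 missed the adjusted threshold there as well. They were PPP4R2, a regulatory subunit of protein phosphatase 4 (-1.03), IL6ST, the gp130 receptor chain shared by cytokines of the interleukin-6 family (-1.17), and IPO7, a nuclear import receptor (-1.13). UBE2Z, an E2 ubiquitin-conjugating enzyme, and AKAP12, a scaffold that anchors protein kinase A, completed them (-1.35 and -1.02). The brighter probes of HS6ST2, IPO7 and UBE2Z differed by 0.02, -0.03 and 0.16.

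**Figure D2:**
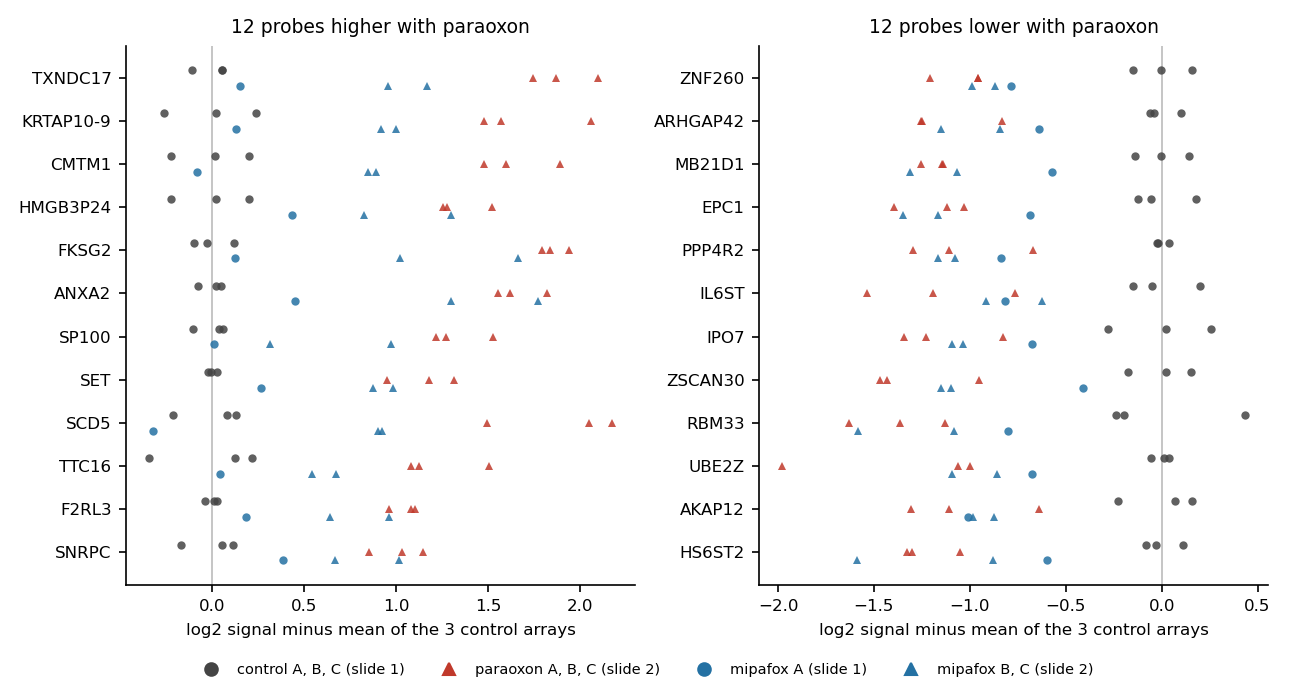
Log2 signal minus the control mean (horizontal axis) of the 12 higher and 12 lower probes named above on each of the 9 arrays, with circles for slide 1 and triangles for slide 2. Among the higher probes mipafox A lies with or near the controls and mipafox B and C mostly between control and paraoxon, whereas among the lower probes mipafox A already lies below the controls.

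The mipafox arrays of both slides showed the same genes apart from paraoxon. TXNDC17 stood at -0.67 on mipafox A, next to the controls, and at 0.35 and 0.13 on mipafox B and C, between control and paraoxon. ANXA2 stood at -0.94 and then at 0.39 and -0.09, so mipafox B lay within the paraoxon range. SCD5 stood at -5.25, below all 3 controls, and at -4.00 and -4.03, short of every paraoxon array. Among the lower genes the mipafox array of slide 1 was already low. ZNF260 stood at -2.93 on mipafox A and -3.01 and -3.13 on mipafox B and C. EPC1 stood at -2.0 and -2.48 and -2.66. AKAP12 stood at -0.45 and -0.31 and -0.42, below the controls on both slides.

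The same split held across all probes past the unadjusted limit. The 423 higher probes had a median difference of 1.24 between paraoxon and control, and a median difference of 0.78 between mipafox on slide 2 and mipafox on slide 1. Mipafox B and C lay above mipafox A in 397 of the 422 with values (94.1%), against 42.5% of all tested probes. On slide 1 the median of mipafox A minus control, which uses the same control arrays, was 0.19. Within slide 2 paraoxon lay above mipafox B and C by a median of 0.36, which uses the same paraoxon arrays. The probes were chosen by these control and paraoxon arrays, which favours a difference in the chosen direction within each slide. The 215 lower probes had medians of -1.19 for paraoxon against control and -0.65 for mipafox across slides. On slide 1 mipafox A minus control had a median of -0.53, and within slide 2 paraoxon and mipafox B and C differed by -0.04. The corresponding medians over all tested probes were 0.01, -0.08, 0.06 and 0.05. With slide as a block the median difference was 0.58 for the higher and -0.55 for the lower probes. The block difference adds up the within-slide differences, so it reuses the arrays that chose the probes and is no separate support. Over 29122 probes the paraoxon difference and the mipafox difference between slides, which share both slides and no array, had a Pearson r of 0.366 and a Spearman rank correlation of 0.304, given across probes as a description.

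**Figure D3:**
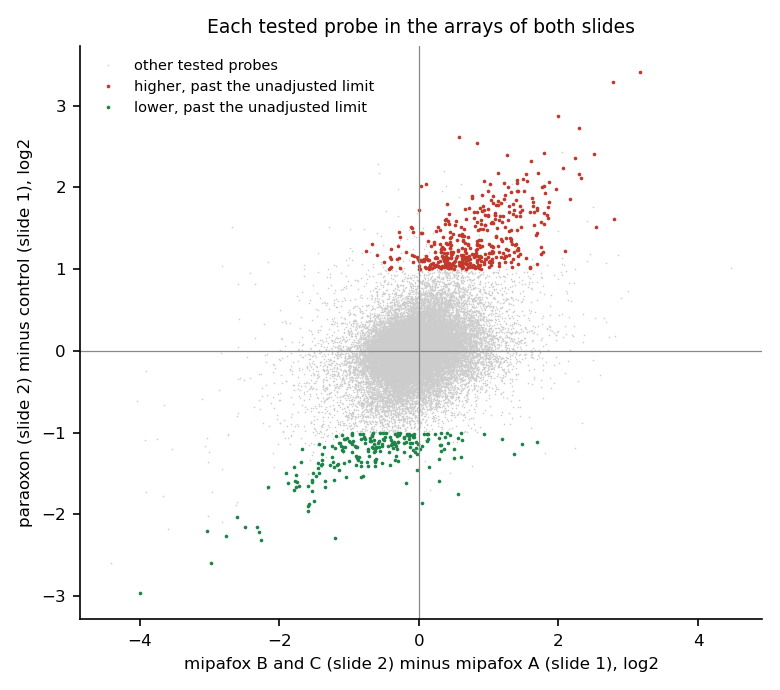
Paraoxon minus control (vertical axis, log2) against mipafox B and C on slide 2 minus mipafox A on slide 1 (horizontal axis, log2) for every tested probe, with probes past the unadjusted limit coloured by direction. The higher probes lie mostly right of 0 (397 of 422) and the lower ones mostly left of it (34 of 215 lie right).

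The fit with slide as a block called 1 probe, that of CNTN3, a neuronal adhesion protein of the immunoglobulin superfamily, on A_24_P71649. Its log2 signal was -5.80, -5.69 and -5.89 in control and -5.39, -5.52 and -5.30 with paraoxon, and mipafox B and C stood at -5.45 and -5.39. Mipafox A alone stood apart, at -2.85. The block difference of 2.96 (limma adjusted p 0.0292) thus stood on that array, and without the block paraoxon and control differed by 0.39.

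Among the symbol-bearing probes well above background on all 6 arrays, 29 higher and 14 lower ones kept a difference beyond 1 in the same direction with slide as a block. These counts set no limit on p, and the same share over all tested probes was not computed. The 8 genes of each direction with the smallest p in that fit are described here, and their adjusted p was 0.613 or above. LTA, the cytokine lymphotoxin alpha, gave -6.46, -6.42 and -7.31 in control and -5.54, -6.01 and -5.20 with paraoxon. It differed by 1.15 without the block and 1.56 with it, and mipafox A stood at -5.65, above its slide's controls. YY2, a retroposed relative of the transcription factor gene YY1, gave -1.06, -1.08 and -1.29 in control and 0.03, -0.34 and 0.12 with paraoxon. It differed by 1.08 and 1.16, and it rose in the 6-array fit (adjusted p 0.0361 in limma). CRHR2, a receptor of corticotropin-releasing hormone, differed by 1.22 and 1.98 with groups that overlapped, since paraoxon A at -5.94 lay below control A at -5.92.

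The other 5 of the 8 higher genes were HIST1H4G, TMEM151B, MOP-1, NKX1-2 and LYNX1, and in all but HIST1H4G the control and paraoxon arrays overlapped. In those that overlapped the unadjusted limma p was 0.0775 to 0.229 with and without the block, so none was under 0.05. LYNX1, which encodes a membrane-anchored modulator of nicotinic acetylcholine receptors, gave 3.65, 2.67 and 1.75 in control and 4.52, 2.67 and 4.31 with paraoxon on A_33_P3418194. Its other 2 probes differed by 0.02 and -0.04. NKX1-2, a homeobox gene, gave -0.22, -1.29 and -1.68 in control and 1.42, -1.01 and 0.75 with paraoxon. The probes of NKX1-2 and TMEM151B were 70% G and C, and all probes over 60% G and C had a median, relative to the control mean, of -0.31 to 0.43 on the control arrays and -0.23 to 0.35 on the paraoxon arrays. Its part in the spread of these genes was not tested.

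Of the 8 lower genes described, CAMKK2, MAPK8 and HIPK1 encode kinases. CAMKK2, the calcium/calmodulin-dependent kinase that activates AMPK, gave -1.96, -2.19 and -2.18 in control and -2.87, -3.10 and -3.59 with paraoxon. MAPK8, the stress kinase JNK1, gave -3.77, -3.91 and -4.03 in control and -4.79, -4.84 and -5.51 with paraoxon on A_33_P3250289. HIPK1, a nuclear kinase that phosphorylates homeodomain proteins and p53, gave -3.30, -3.49 and -3.42 in control and -4.40, -4.03 and -5.17 with paraoxon. In all 3 paraoxon lay below control without overlap, as in 11.1% of all tested probes. Mipafox A was low in each of these genes, at -2.69, -4.72 and -4.52. They differed by -1.08, -1.14 and -1.13 without the block and by -1.20, -1.13 and -1.55 with it. The brighter probe of HIPK1 differed by 0.15. ZNF699, a zinc finger gene, differed by -1.0 and -1.60, the matrix metalloproteinase gene MMP16 by -1.26 and -1.24, and SEC13, of the COPII coat and the nuclear pore, by -1.07 and -1.35. The 2 brighter probes of SEC13 differed by -0.05 and -0.21. IL6ST and AKAP12, named above, were the remaining members, at -1.21 and -1.10 with the block.

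Probes of 1 gene often did not move together. Of the higher probes 45 had another tested probe of the same gene, the brightest of which differed in the same direction in 19 cases. It passed the limit in the same direction in 0 cases and in the opposite direction in 1, that of ARHGAP42. In the direction of the first probe the median difference of these others was -0.05, beside 1.23 on the first probe. Of the lower probes 85 had another, which differed in the same direction in 49 cases and passed the limit in the same direction in 6 and in the opposite direction in 2, both of ARHGAP42. The other probe was the brighter in 25 of the 45 and in 75 of the 85. SCD5 had differences of 1.90, -0.05 and -0.05 on its 3 probes. ANXA2 had 1.66 and -0.11, and SET had 1.15, -0.03 and -0.61. ARHGAP42 pointed both ways, at -1.11, -1.05 and 1.27.

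IL6ST and RBM33 were the fuller cases among the lower genes. IL6ST had 7 tested probes, and all 7 differences were negative, from -1.39 to -0.05, and 2 of the probes were well above background on 2 of the 3 paraoxon arrays only. On A_33_P3233841 it gave -0.15, 0.08 and -0.18 in control and -0.82, -1.36 and -0.98 with paraoxon, a difference of -0.97. On A_32_P45168 it gave -0.95, -0.68 and -0.81 in control and -0.89, -0.79 and -0.91 with paraoxon, where the arrays overlapped. RBM33 differed by -1.37, -1.23 and -0.52 on its 3 probes. AKAP12 had -1.02, -0.24 and -0.06, and MAPK8 had -1.14, -0.41 and 0.32.

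**Figure D4:**
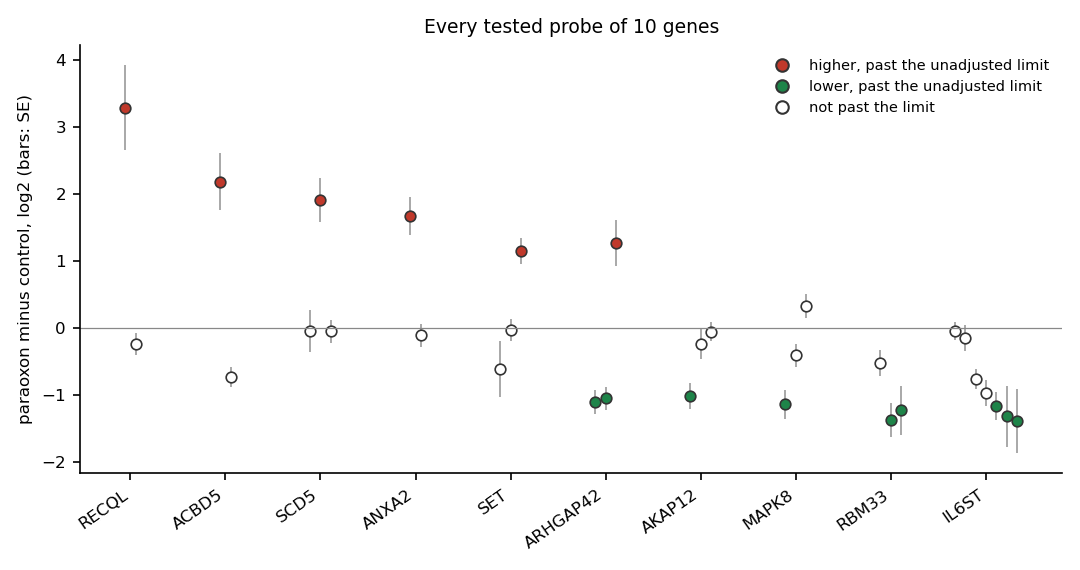
Difference between paraoxon and control (vertical axis, log2, with SE) for every tested probe of 10 genes, in genomic order within a gene, filled where a probe passed the unadjusted limit. SCD5, ANXA2 and SET each have 1 filled probe and others near or below 0, whereas all 7 IL6ST probes lie below 0.

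The sequences of the higher probes held the letters AATAAA, those of the canonical polyadenylation signal, more often than those of the lower probes. Over all names AATAAA was in 42 of 423 higher probes (9.93%), 6 of 215 lower probes (2.79%) and 7.09% of all tested, and among lincRNA probes in 3.92% of the higher ones and 3.58% of all. The 60-base probes were searched for AATAAA as deposited and for its reverse complement TTTATT, the same letters on the other strand. The shares lay further apart among probes with a gene symbol, where AATAAA was in 26 of 138 higher probes (18.8%), in 5 of 147 lower probes (3.4%) and in 1730 of all 21842 (7.92%). TTTATT was in 7.25, 2.72 and 3.94%, and 3 of the higher probes held both. Put the other way, 1.5% of the 1730 probes with AATAAA were higher and 0.289% lower, against 0.557% and 0.706% of those without it. In the 6-array fit 0.925% of the probes with AATAAA were called higher, against 0.348% of all probes with a symbol, and with slide as a block 0.809% were higher at the unadjusted limit, against 0.444%. A match describes these letters and does not show that the site is used. The motif is also poor in G and C. Of 5729 tested probes with at most 35% G and C 83 were higher and 22 lower. Among probes with a symbol the median share of G and C was 42.5% in the higher and 45% in the lower ones. The part of base composition in the shares of AATAAA was not tested.

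Stretches of 30 bases around AATAAA, in capitals, are shown 5′ to 3′ from 10 higher probes because 5 of them fell into groups of like sequence and the other 5 belong to genes named here.
F2RL3: cctgcagaactgtgagacAATAAActctca
LOC401164: cctccagaattgtaaggcAATAAAttcatg
LOC100270679: cctctagaactgtgaaacAATAAActgttg
DEFB132: cagtttatggctattacaAATAAAgcttct
EFCAB5: cagttcttagctattataAATAAAgctact
SET: tacaagttgcgttgttacAATAAAactaaa
ACBD5: ttgtaaaactaagttaaaAATAAAaggtta
BCL10: ggaaattttgctatcaacAATAAAattttt
NR4A1: aatatatttaatatattgAATAAAaaatag
RECQL: ttatgtttaaaacacagaAATAAAtaactt

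In build hg19 the probes lie at chr19:17002771-17002830 (F2RL3), chr4:189459645-189459704 (LOC401164), chr20:22055232-22055291 (LOC100270679), chr20:241668-241727 (DEFB132) and chr17:28401583-28401642 (EFCAB5). Those of the other genes lie at chr9:131457742-131457801 (SET), chr10:27484153-27484212 (ACBD5), chr1:85731938-85731997 (BCL10), chr12:52453226-52453285 (NR4A1) and chr12:21621894-21621953 (RECQL). DEFB132, a beta-defensin, gave -7.16, -7.05 and -6.81 in control and -5.89, -6.03 and -5.50 with paraoxon, higher without overlap as in 12.4% of all tested probes. Mipafox stood at -6.83 on A and -5.49 and -6.13 on B and C.

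The first 3 sequences were identical at 22 to 24 of 30 positions, and those of DEFB132 and EFCAB5, an EF-hand protein gene, at 25 of 30. Pairs among the other genes shown were identical at 9 to 15 of 30. The stretches were lined up on AATAAA, so its letters match in every pair. Of the 423 higher probes, 62 (14.7%) shared a word of 16 bases with a differently named probe more than 100 kb away or on another chromosome, against 10 of 215 lower probes (4.65%) and 2356 of all 29134 (8.09%). Of those 2356 probes 2.63% were higher, against 1.45% of all, but with slide as a block 0.637%, against 0.855%. Such probes may measure more than 1 transcript.

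ACBD5 and RECQL showed how the probe with AATAAA and another probe of the gene can differ. In SET both A_24_P917866, at 1.15, and A_23_P217015, at -0.61, held AATAAA, so probes with it differed too. Its probe without AATAAA, A_33_P3727762, differed by -0.03. ACBD5, a peroxisomal acyl-CoA-binding protein, gave -5.76, -5.38 and -5.13 in control and -3.33, -2.91 and -3.50 with paraoxon on the probe with AATAAA, A_24_P175563, a difference of 2.18. Its probe without AATAAA, A_23_P97795, gave 0.94, 0.84 and 0.86 in control and 0.27, 0.08 and 0.10 with paraoxon, a difference of -0.73. The groups did not overlap on either probe and the directions were opposite. Of all tested probes 12.4% lay higher and 11.1% lower without overlap. On the ACBD5 probe with AATAAA mipafox A stood at -5.34 and mipafox B and C at -3.64 and -3.62. Its difference came to 0.475 with slide as a block. RECQL, a DNA helicase of the RecQ family, gave -8.12, -8.23 and -7.93 in control and -4.90, -4.46 and -5.07 with paraoxon on A_32_P159334, which was not well above background on any control array. Mipafox A, at -7.85, lay near the controls there, and mipafox B and C, at -5.14 and -4.99, lay near paraoxon. Its other probe differed by -0.23.

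Some probes were not well above background on any control array but were on all 3 paraoxon arrays. There were 8 of these among 21842 tested probes with a gene symbol, RECQL among them, and 113 showed the reverse. Of all probes on the array 70.0, 73.6 and 70.3% were well above background on control A to C. On paraoxon A to C 70.3, 69.5 and 65.7% were, and the part of this in the counts was not tested. For probes measured in 1 group only the fold is a bound, the mean of the measured group over the higher, on each array of the other group, of the probe's own signal and the lowest signal well above background. RECQL was at least 8.79-fold higher, and POFUT1, the fucosyltransferase that primes Notch receptors, at least 4.89-fold higher. DCAF10, a substrate receptor of CUL4 ubiquitin ligases, was at least 3.53-fold and KIAA1524, now CIP2A, an inhibitor of PP2A, at least 3.03-fold higher. The brighter probe of DCAF10 differed by 0.09. On its dim probe mipafox A stood at -7.88, within the control range, and mipafox B and C at -6.21 and -6.30, near paraoxon. KIAA1524 stood at -8.33 on mipafox A and at -6.49 and -7.88 on B and C. With slide as a block the fitted differences of RECQL, DCAF10 and KIAA1524 came from 3.285, 1.867 and 1.601 to 0.503, 0.244 and 0.454. POFUT1 gave -7.67, -8.24 and -9.18 in control and -6.12, -5.46 and -5.66 with paraoxon. Mipafox A stood at -6.25, so on slide 1 as well POFUT1 was above the controls in mipafox. Its fitted difference was 2.62 in all 9 arrays and 2.04 with slide as a block.

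Other probes were well above background on the control arrays and on no paraoxon array. Of these, that of DIO2, the deiodinase that activates thyroid hormone, was at least 2.52-fold lower. It gave -5.87, -6.31 and -5.97 in control and -7.78, -7.26 and -8.38 with paraoxon. AKAP5, a kinase anchor of postsynaptic densities, was at least 2.21-fold lower, with -5.77, -5.79 and -5.67 in control and -6.98, -7.13 and -6.55 with paraoxon. VGLL1, a cofactor of TEAD factors, was at least 1.88-fold, DISC1, a neuronal scaffold, at least 1.76-fold and ILDR2, an immunoglobulin-domain receptor, at least 1.69-fold lower. The brighter probes of DIO2 and DISC1, however, differed by 0.01 and 0.03. On the 5 probes with these bounds the control and paraoxon arrays did not overlap, and paraoxon lay lower, as in 11.1% of all tested probes. The rule that chose them, by detection in control only and smallest p, made this likely.

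Functions were then read from gene lists, with 1 probe per gene, the brightest. Of all 16893 genes 813 were higher (4.81%) and 700 lower (4.14%) at an unadjusted p under 0.05 at any fold, with a median difference of 0.01, and 185 (1.1%) were past the unadjusted limit. The counts below are at the unadjusted p at any fold and are read against these shares.

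The genes of the direct OP targets gave few differences. Of 30 esterase and serine hydrolase genes 0 were higher and 1 was lower, with a median of 0.06. ACHE, acetylcholinesterase, gave -2.55, -2.89 and -2.89 in control and -2.53, -2.68 and -2.67 with paraoxon. BCHE, butyrylcholinesterase, gave -3.98, -3.66 and -3.74 in control and -3.94, -3.51 and -3.61 with paraoxon. PNPLA6, neuropathy target esterase, gave -0.45, -1.03 and -0.74 in control and -0.82, -0.99 and -0.90 with paraoxon. The groups overlapped in all 3, and the differences were 0.15 ± 0.15, 0.11 ± 0.19 and -0.16 ± 0.16 (SE), with limma adjusted p of 0.747, 0.874 and 0.744. MGLL, the monoglyceride lipase that degrades the endocannabinoid 2-arachidonoylglycerol, was the 1 lower gene, at -0.60, and -0.03 with slide as a block.

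The cholinergic and detoxification genes gave counts near or below the background. Of 22 tested genes of acetylcholine synthesis, transport and receptors 1 was higher and 1 lower. CHRNB3, the beta-3 subunit of nicotinic receptors, gave -4.66, -4.66 and -4.95 in control and -3.82, -4.21 and -3.46 with paraoxon, a difference of 0.92. CHRM1, the M1 muscarinic receptor, was well above background on the 3 control arrays and on no paraoxon array, and was at least 1.57-fold lower with measured means of -6.39 and -7.03. Of 28 genes of xenobiotic metabolism and paraoxonases 2 were higher and 1 lower, namely the cytochrome P450 genes CYP1A2 (0.66), CYP2D6 (0.53) and CYP2E1 (-0.56, well above background on 2 of the 3 paraoxon arrays).

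Retinoic acid response and early neural genes also gave few differences. Of 24 pluripotency genes 2 were higher and 0 lower, PHC1, a Polycomb subunit, at 0.41 and UTF1, a chromatin factor of embryonic cells, at 0.60. Of 27 retinoic acid response genes 2 were higher and 2 lower, namely the homeobox gene MEIS2 at 0.37, the retinoid X receptor gene RXRG at 0.72, RARRES1 at -0.37 and the array's STRA13 probe at -0.45. Of 25 neural progenitor genes 0 passed in either direction, with a median of 0.07. Of 34 neurogenic factor and neuron genes 1 was higher and 3 were lower. These were ONECUT2 at 0.79, its relative ONECUT1 at -0.68, the RNA-binding neuronal gene ELAVL2 at -0.64 and VAMP2, a SNARE of synaptic vesicles, at -0.96.

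Of 23 HOX genes, classic targets of retinoic acid, 0 were higher and 3 lower, at HOXD8, HOXA5 and HOXB1. HOXD8 gave -1.96, -2.03 and -2.07 in control and -2.72, -2.75 and -2.71 with paraoxon. HOXA5 gave -0.01, -0.02 and -0.16 in control and -0.68, -0.62 and -0.60 with paraoxon, and HOXB1, a marker of the anterior hindbrain, gave -2.83, -2.65 and -2.72 in control and -3.14, -3.35 and -4.24 with paraoxon. In each the paraoxon arrays lay below the controls without overlap, as in 11.1% of all tested probes. The choice of these genes by smallest p made this likely. The median of the 23 was -0.01, so the list as a whole stood near 0. HOXD8 differed by -0.71 ± 0.13 (SE), with a limma adjusted p of 0.0764 in all 9 arrays and 0.0384 in the 6-array fit. Mipafox A stood at -2.66, near paraoxon, while mipafox B and C stood at -2.41 and -2.42. HOXA5 and HOXB1 differed by -0.57 and -0.84. With slide as a block the 3 stood at -0.95, -0.26 and -0.58, while the list median was 0.31.

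Genes of other cell types also gave few differences. Of 21 endoderm, mesoderm and trophoblast genes 1 was higher, the myogenic factor gene MYOD1, at 0.90. Of 12 glial genes 0 passed in either direction. Of 26 fibroblast and matrix genes 1 was higher, ITGA6 at 0.46, and 2 were lower, ITGA5 at -0.54 and FN1, fibronectin, at -0.70, which was well above background on 2 of the 3 paraoxon arrays.

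In the Hippo pathway, a kinase cascade that restrains the coactivator YAP, 0 of 23 genes were higher and 4 lower. YAP1 itself gave 1.73, 1.42 and 1.30 in control and 0.30, 0.14 and 0.70 with paraoxon. MOBKL1B, now MOB1A, the scaffold that activates the LATS kinases, gave -0.55, -0.56 and -0.76 in control and -1.49, -1.36 and -1.5 with paraoxon. LATS1, the kinase that phosphorylates YAP, gave -5.18, -5.16 and -4.90 in control and -6.26, -5.62 and -5.76 with paraoxon. Paraoxon lay below control without overlap in each of these, as in 11.1% of all tested probes. The differences of the effector and of 2 of its inhibitors were -1.10, -0.83 and -0.80. The YAP target gene ANKRD1 stood at -0.58. MOB1A passed the adjusted threshold in the 6-array fit (0.0361 in limma) without reaching a difference of 1. Mipafox A stood at 0.97, -1.07 and -5.85, below the controls of its slide in each, and with slide as a block the differences were -0.53, -0.17 and -0.43.

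In the Nodal, BMP and TGF-beta pathway 1 of 38 genes was higher and 3 were lower, SMAD5 and ACVR1B among them. BMP8B, a BMP ligand, gave 1.75, 1.63 and 1.51 in control and 2.48, 2.46 and 3.00 with paraoxon, a difference of 1.02. SMAD5, which carries BMP signals to the nucleus, differed by -0.54, and ACVR1B, a receptor of Nodal and activin, by -1.07.

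The FGF, Wnt and Notch pathways were close to the background. Of 24 FGF genes 2 were higher, FGFR1 at 0.45 and the adaptor FRS3 at 0.82, and 2 lower, ETV4, a transcription factor induced by FGF, at -0.69 and the receptor FGFR4 at -0.84. FRS3 was -0.28 with slide as a block. Of 32 Wnt genes 1 was higher, the receptor FZD3 at 0.38, and 2 lower, APC, of the complex that degrades beta-catenin, at -0.65 and the ligand WNT3 at -0.59. Of 26 Notch genes 2 were higher, POFUT1 and RBPJ, the DNA-binding factor of the pathway. RBPJ gave 2.95, 3.01 and 2.94 in control and 3.46, 3.38 and 3.58 with paraoxon, a difference of 0.51. It lay higher without overlap, as did 12.4% of all tested probes.

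The replication-dependent histones varied widely within a treatment. Relative to the control mean their median was 0.66, -0.03 and -0.64 on control A to C and -0.54, -1.43 and 0.17 on paraoxon A to C, so the groups overlapped and paraoxon C lay above control B and C. Of 65 genes 4 were higher and 9 lower at the unadjusted p, with a median of -0.56 and 0.71 with slide as a block, and the same median was -1.35 between mipafox B and C and mipafox A. Members differed in sign. HIST1H3J, now H3C12, gave 1.32, 0.89 and 0.62 in control and 1.94, 1.83 and 2.11 with paraoxon. HIST1H3B, chosen from the same family after its values were seen, gave 3.71, 3.18 and 2.62 in control and 1.79, 0.95 and 2.29 with paraoxon. The former differed by 1.02 and the latter by -1.49, although both encode histone H3. HIST1H4G, now H4C7, differed by 2.02 and HIST1H4E, now H4C5, by -1.53. Histone genes of a class are near-identical in sequence and their messages lack a poly(A) tail, so their probes are uncertain here.

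The lists of cell division and chromatin genes were otherwise close to 0 on the brightest probe of each gene. Of 39 DNA replication genes 1 was higher and 0 lower. Of 38 mitosis genes 1 was lower, the proliferation marker gene MKI67, at -0.51. Of 34 histone chaperones and chromatin readers 1 was lower, HMGB1, at -0.32. Dimmer probes of the chromatin genes CBX3 and SET passed the unadjusted limit, at 1.86 and 1.15. Their brighter probes differed by -0.08 and -0.03.

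Genes of stress programmes gave counts near or below the background. Of 29 p53 targets and of 31 heat shock proteins and co-chaperones 0 passed in either direction in limma at the unadjusted threshold, with medians of -0.03 and -0.02. Of 13 metallothioneins 0 passed, of 30 genes of endoplasmic reticulum and amino acid stress 1 was higher (SLC7A11, a cystine transporter, at 0.35), and of 30 BCL2 family and caspase genes 1 was higher (BIRC6 at 0.40). Of 27 NRF2 antioxidant genes 2 were higher and 1 lower. GCLM, the modifier subunit of the enzyme that begins glutathione synthesis, gave 1.92, 1.88 and 1.55 in control and 2.86, 2.59 and 2.81 with paraoxon. Paraoxon lay above control without overlap, as in 12.4% of all tested probes. The difference of 0.97 had a limma adjusted p of 0.112 in all 9 arrays and 0.0393 in the 6-array fit. Mipafox A stood at 1.71 and mipafox B and C at 2.58 and 1.93. TXNRD1, thioredoxin reductase, went the other way, at -0.67.

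Among 26 immediate early genes 2 were higher, NR4A1 and KLF10 (0.46), and 3 lower, JUND, FOSL2 and the phosphatase gene DUSP2 (-0.63). NR4A1, an orphan nuclear receptor, gave -5.75, -5.71 and -5.64 in control and -4.47, -4.27 and -4.89 with paraoxon, a difference of 1.16. Mipafox gave the same step between slides, -5.41 on A against -3.97 and -4.37 on B and C, and with slide as a block the difference was -0.07. Its probe was among those with AATAAA above, as was that of BCL10, a signalling adaptor of lymphocytes, which differed by 2.12 without the block and -0.20 with it. JUND, an AP-1 subunit, gave -0.33, -0.86 and -1.03 in control and -1.23, -1.80 and -1.75 with paraoxon, a difference of -0.85. FOSL2, another AP-1 subunit, was above background on the 3 control arrays and on no paraoxon array and was at least 2.30-fold lower, with measured means of -6.19 and -7.60.

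Lipid and energy metabolism gave counts below or near the background. Of 78 respiratory chain genes 0 passed in either direction, with a median of -0.05, and 0.36 with slide as a block. Of 27 cholesterol synthesis genes 1 was lower, the cholesterol carrier gene STARD4, at -0.41. Of 25 genes of fatty acid synthesis and desaturation 2 were lower, ACBD5 on the probe without AATAAA (-0.73) and the elongase ELOVL1 (-0.39). Of 33 genes of glycolysis and hypoxia 2 were higher, NDRG1 at 0.41 and the angiogenic factor gene VEGFA at 0.57, and 2 lower, ENO1, enolase, at -0.55 and the carbonic anhydrase gene CA9 at -0.37.

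Genes of protein synthesis and turnover gave counts near or below the background. Of 86 cytosolic ribosomal protein genes 0 were higher and 1 lower, RPL7L1 at -0.51, and 9 lay above 0. Their median of -0.15 came to 0.04 in the values normalised by the authors and to 0.25 with slide as a block, so its sign depended on the processing and the fit. Of 46 proteasome genes 1 was lower, PSMC4 at -0.44, and of 20 aminoacyl-tRNA synthetases 1, LARS at -0.46. Of 34 E2 enzymes 1 was lower, UBE2NL at -0.52, and of 70 splicing factors 2, SF3B1 at -0.61 and PRPF38B at -0.45.

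**Figure D5:**
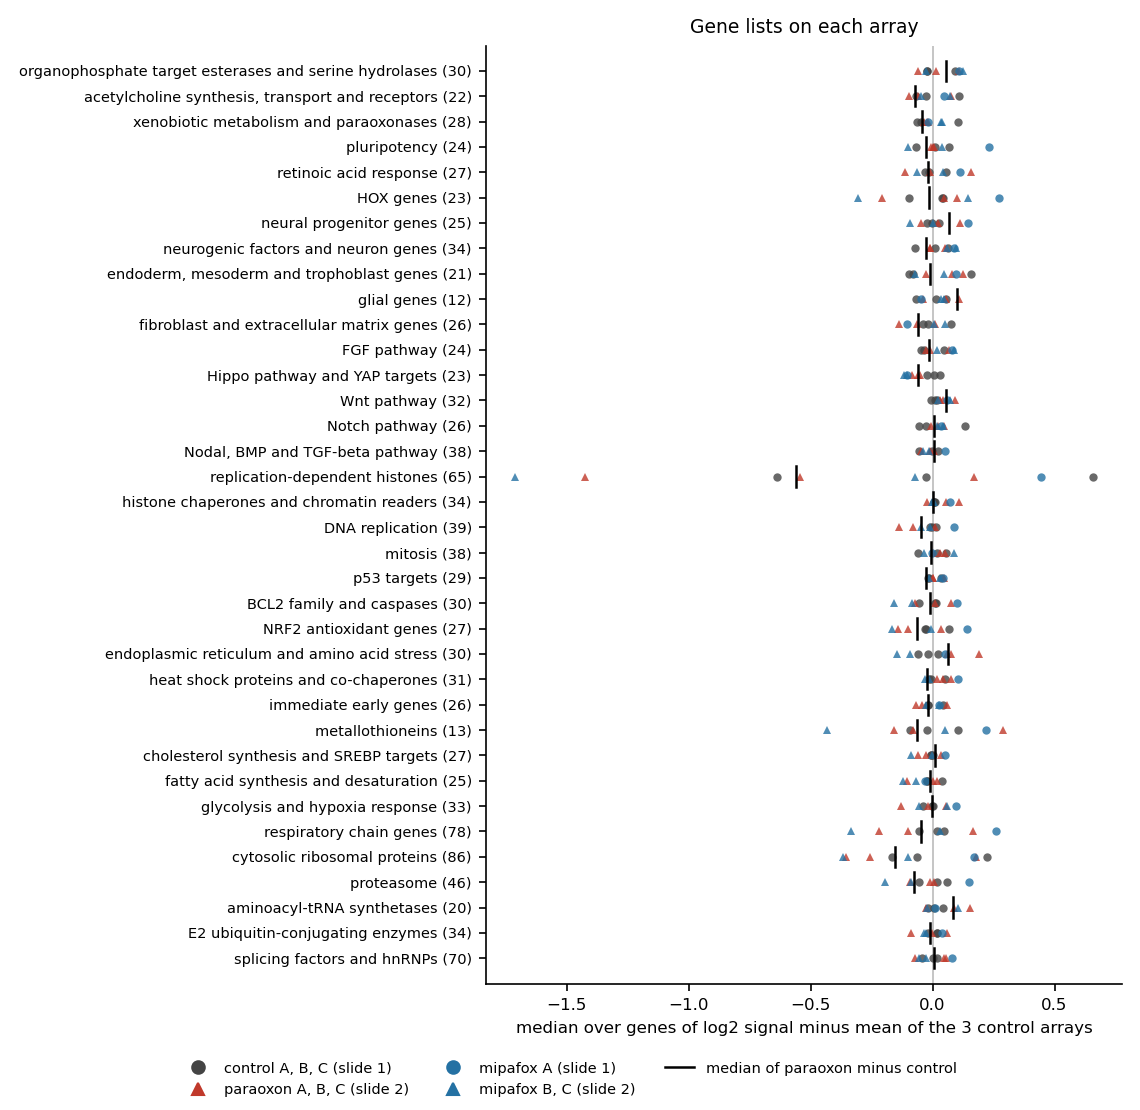
Median log2 signal of each of the 36 gene lists on every array, relative to the control arrays, with lists ordered by role. Most lists lie near 0 on all arrays, and the replication-dependent histones span the widest range, with a paraoxon minus control median of -0.56.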

How the data were processed

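The 9 RNA samples were hybridised singly to 1-colour human Agilent arrays with 60-base probes. The deposited scanner files, made by the authors with Agilent Feature Extraction 10.5.1.1 per the submitters' processing notes, hold background-subtracted processed intensities, and the authors also deposited a table of normalised log2 values, whose stated tool is Agi4x44PreProcess and which served as an alternative. Here log2 of the processed intensity minus each array's 75th percentile was taken, flagged outlier spots were dropped, and replicate spots of a probe averaged. Probes that were well above background on all 3 arrays of 1 treatment or more and had 2 values or more in each treatment were fitted with limma 3.58.1 in R 4.3.3 (lmFit, eBayes, 1 mean per treatment, Benjamini-Hochberg over all 29134 probes). Figures used matplotlib 3.10.9. The steps were tested on simulated data. The number of arrays, 3 per treatment, limits the precision.

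Samples were grouped by their titles, and slides were read from the scanner files. The genes named were (a) the 12 probes per direction with the smallest p among those beyond 1 on the log2 scale, well above background on the 6 arrays and with an ordinary gene symbol, (b) the 8 per direction in both this fit and the fit with slide as a block, (c) up to 3 genes per list at an unadjusted p under 0.05 together with ACHE, BCHE and PNPLA6, and (d) the 5 per direction measured in 1 group only. Some results under (c) are not reported here. Further members of small counts were named after their values were seen, and the members and the 36 lists and 19 families were chosen with earlier results of these data known. Coordinates are those of the files in build hg19, sequences those of the probes in the files, and current symbols come from RefSeq. Alternatives changed the background correction, normalisation, filter, blocks, weights, variance model, arrays and probes per gene.

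Replicate letters did not pair the samples, as the correlations of same-letter deviations were 0.173, 0.116 and -0.451 between control and paraoxon.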

Additional observations from a re-analysis of the deposited data

How the results depend on the processing

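The count of 0 probes called in the fit of all 9 arrays became 276 in the 6-array fit, 1 with slide as a block, 671 with array weights and 638 at the unadjusted limit, and stayed at 0 under the other normalisations, background corrections, filters and variance models tried. Leaving out 1 array at a time gave 0 to 276, with 276 without mipafox A, 93 without mipafox B, 1 without mipafox C and 0 without any other array. The cause was not tested. The replicate block gave 0, also together with slide, and the letters did not pair the samples (same-letter correlations of -0.451 to 0.173 between control and paraoxon, -0.597 to 0.236 between paraoxon and mipafox and -0.069 to 0.567 between control and mipafox).

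Of 2491 values of the 109 named results under the alternatives, 2363 kept direction and side of the threshold, 114 passed the threshold newly and 14 changed sign. With slide as a block the sign changed for STRA13 (0.005), ONECUT1 (0.010), FRS3 (-0.283), WNT3 (0.029), NR4A1 (-0.071), ELOVL1 (0.061), LARS (0.102) and ACHE (-0.067). With the replicate block and slide together it changed for FRS3 (-0.030), APC (0.027), NR4A1 (-0.089) and ACHE (-0.311), and with array weights for PNPLA6 (0.060) and BCHE (-0.143). Of 1344 list and family medians 132 moved beyond the spread between arrays. Signal over background limits the genes measured in 1 group only, whose folds are bounds.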

Other observations

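Families defined by symbol or by the array's own description showed where single members past the unadjusted limit fell. Of 308 pseudogenes tested by their brightest probe 44 were higher and 9 lower at an unadjusted p under 0.05, against 4.81% and 4.14% of all genes, with a median difference of 0.05. NACAP1, a copy of the nascent polypeptide-associated complex gene NACA, gave 2.37, 2.34 and 2.39 in control, 3.60, 3.59 and 4.05 with paraoxon and 2.40 on mipafox A, with 3.76 and 3.52 on mipafox B and C. SNRPD2P2, a copy of a spliceosomal Sm protein gene, gave -0.36, -0.24 and -0.01 in control and 1.0, 1.36 and 0.97 with paraoxon, and mipafox B and C stood at 0.73 and 0.68. Both lay higher with paraoxon without overlap, as did 12.4% of all tested probes. With slide as a block their differences of 1.38 and 1.31 came to 0.13 and 0.31. RPL13AP17, a ribosomal protein copy, differed by 1.13 and 0.72 in the same pair of fits, and REREP3 by 1.71 and 0.26.

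Keratins and olfactory receptors also had more higher than lower members. Of 82 keratins and keratin-associated proteins 17 were higher and 1 lower, with a median of 0.25, and of 69 olfactory receptors 13 were higher and 3 lower, with a median of 0.31. Both medians stayed above 0 under every normalisation tried, at 0.08 and 0.10 with normexp background correction and quantile normalisation. By array, however, the groups overlapped. The keratin median was 0.245, -0.087 and -0.178 on control A to C and 0.264, 0.129 and 0.371 on paraoxon A to C. That of the olfactory receptors was 0.255 on control A and 0.017 on paraoxon B. Of 380 olfactory receptor genes on the array 69 passed the filter on dim probes, which a gene can pass through the group in which it is bright. The 69 thus do not stand for the family. The same limit holds for the keratins (82 tested of 148), the pseudogenes (308 of 478) and the genes named LOC (966 of 1892). Of 966 tested genes named LOC 126 were higher and 28 lower. Among 535 zinc finger genes 15 were higher and 36 lower, with a median of 0.01. Among 35 kinesins 5 were higher and 0 lower, and among 98 Rab GTPases and TBC-domain proteins 5 were higher and 5 lower. Higher and lower counts were 12 and 15 of 286 solute carriers, 3 and 0 of 40 ABC transporters, 4 and 1 of 62 potassium channels, and 1 and 2 of 22 GABA, glycine and glutamate receptors. They were 2 and 4 of 35 protocadherins, 1 and 4 of 61 semaphorins, ephrins, netrins, slits and their receptors, 3 and 1 of 37 collagens, and 2 and 3 of 27 annexins and S100 proteins. Chemokines, interleukins and their receptors gave 9 and 6 of 82, and genes named as open reading frames 34 and 21 of 778. Of 44 small nucleolar and other non-polyadenylated RNAs 0 were higher and 3 lower, with a median of -0.33, and 0.33 with slide as a block.

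CXCL5, a neutrophil-attracting chemokine, gave -1.03, -0.74 and -0.72 in control and 0.28, 0.53 and 0.48 with paraoxon, and mipafox gave -0.96 on slide 1 and 0.31 and 0.61 on slide 2. TBC1D3B, a hominoid-specific TBC-domain gene, gave -4.49, -4.65 and -4.92 in control and -3.25, -3.44 and -3.44 with paraoxon, with mipafox at -4.51 and then -3.18 and -3.07. In both the mipafox arrays of slide 2 lay within or above the paraoxon range, and with slide as a block the differences of 1.26 and 1.31 came to -0.15 and -0.08. SEMA7A, a membrane-anchored semaphorin, gave -4.24, -4.50 and -4.80 in control and -5.66, -6.11 and -5.98 with paraoxon, a difference of -1.41 that passed the adjusted threshold in the 6-array fit (0.0283 in limma). It stood at -5.04 on mipafox A, below the controls of its slide, and at -0.67 with slide as a block. SLC6A17, a vesicular transporter of neutral amino acids, gave -4.54, -5.11 and -5.85 in control and -6.54, -7.13 and -8.46 with paraoxon, but mipafox B and C were as low, at -7.23 and -9.06, and the block difference was 0.83. GRIN3A, an NMDA receptor subunit, differed by -2.03 without the block and 0.58 with it. SLC6A17 and GRIN3A were well above background on the 3 control arrays and on 1 of 3 paraoxon arrays, so their sizes are uncertain. These genes were picked from the families after their values were seen.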
